A study of Mus musculus with 16 samples.

Results

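Basement membrane and SPARC family genes were followed across 6 Notch1 genotypes in endothelial cells of the mouse embryo. The set held 10 genes, Sparc, Sparcl1, Nid1, Nid2, Col4a1, Col4a2, Lama4, Lamc1, Hspg2 and Frem1, out of 22096 gene symbols in the deposited tables. They were chosen by name with earlier results of these same data known, in which 12/- embryos had been compared with the other genotypes. For these 10 genes each difference of 12/- embryos is therefore given as a description, with its standard error and without a p-value. Which of them passed a p-value limit is given later, beside the share of all genes, and nothing is read from those counts. The level of a gene was the sum of its transcripts in FPKM, a fragment count corrected for transcript length and sequencing depth, divided by a scaling factor for each library. All 10 genes were present and all 10 passed the minimum mean of 1 FPKM.

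The cells had been sorted from whole embryos at embryonic day 9.5 by CD31, a surface protein of endothelial cells. The 12/- embryos (3 libraries) had a deleted Notch1 allele opposite an allele named 12, which encodes the intracellular domain of Notch2 in place of that of Notch1, and the labels report endothelial dysfunction. The 12/vg embryos (1 library) had the 12 allele opposite vg, a valine-to-glycine change that makes the released intracellular domain less stable, and the labels report partial dysfunction. The +/12, +/- and +/vg embryos (3 libraries each) had a 12, a deleted or a vg allele opposite a wild-type allele, and +/+ embryos (3 libraries) had wild-type alleles only. Endothelial development is labelled normal in these last 4 groups, which are called the normal groups here. The labels name no cell-type driver for any allele. Whether each library came from 1 embryo or from a pool is not stated either. A p-value here sets a difference between groups against the spread of libraries within groups, pooled over the groups. Part of that spread may therefore be technical.

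A basement membrane is a thin sheet of extracellular matrix beneath endothelial and epithelial cells. Laminins and type IV collagen polymerise into its networks, nidogens and perlecan link these networks, and SPARC proteins bind collagen and modulate how matrix is laid down. In blood vessels the endothelium and the mural cells around it both contribute to this sheet.

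As a check of the genotypes, Notch2, whose intracellular sequence the 12 allele also carries, ran from 3.39 to 4.40 scaled FPKM in the 7 libraries with it and from 2.10 to 3.41 in the 9 without it, with 1 library without the allele above the lowest carrier. Notch1 ran from 14.5 to 19.7 scaled FPKM with a 12 allele and from 16.4 to 23.3 without it. The deleted allele did not show in Notch1, which had 15.4 to 19.7 in 12/- libraries against 14.5 to 16.0 in +/12 libraries, and 16.4 to 23.2 in +/- libraries against 17.4 to 23.3 in +/+ libraries. All 12 endothelial markers were present, with sums of 1138 to 1319 scaled FPKM in 12/- libraries, 1148 in the 12/vg library and 1025 to 1200 in the 12 normal libraries. Sums of 12/- libraries overlapped with normal ones, but 9 of the 12 markers had a positive difference from the mean of the normal groups (median 0.22, 1 called higher and 0 lower by limma, 5 at an unadjusted p under 0.05). Of all genes tested in this comparison, 0.72% were called higher and 0.0664% lower, and 11.5% had an unadjusted p under 0.05. Aligned sequence came to 0.262 gigabases in the 12/vg library, 0.189 in +/- replicate 2 and 1.11 to 1.80 in the other 14, so the 2 shallow libraries give the least precise values. The file names carry a library number. All +/+ libraries and replicates 1 and 2 of +/- and +/vg had numbers from 371 to 380, and all other libraries had numbers from 203 to 248. The labels name no batch, but between +/+ embryos and 12/-, 12/vg or +/12 embryos the number range and the genotype cannot be told apart.

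The genes differed over a wide range of levels. FPKM is a value per transcript length, so levels can be set against each other. Over the 12 normal libraries Sparc averaged 306 ± 49.0 scaled FPKM, more than 98.3% of the genes tested. Col4a2 averaged 101 ± 17.2, Nid1 94.4 ± 9.17, Col4a1 86.9 ± 15.3 and Hspg2 78.5 ± 7.79, and neighbours in this order did not differ beyond their spread. Lamc1 at 31.3 ± 3.91, Nid2 at 25.5 ± 4.70 and Lama4 at 19.0 ± 2.77 followed, again with overlapping ranges between neighbours. Sparcl1 at 6.85 ± 2.09 and Frem1 at 3.02 ± 0.524 (SD, n = 12 throughout) were the lowest, and the ranges of these 2 genes touched neither each other nor Lama4.

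**Figure D1:**
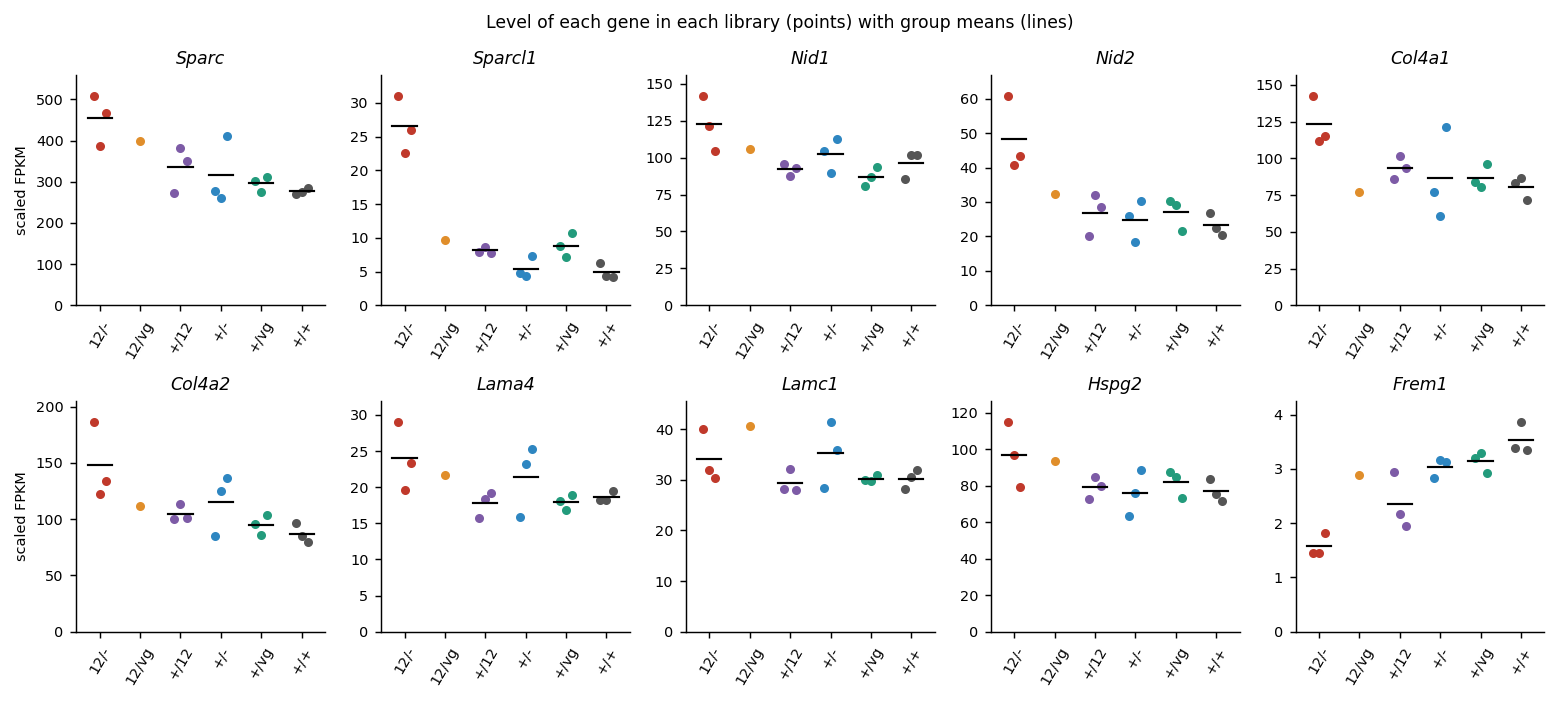
Level of each of the 10 genes in scaled FPKM (vertical axis, from 0) in each library (points) with the mean of each group (lines), for 12/- (3 libraries), 12/vg (1 library), +/12, +/-, +/vg and +/+ (3 libraries each). Sparcl1 and Nid2 lie higher in all 3 12/- libraries than in any of the 12 normal libraries, Frem1 lies lower, and the other 7 genes overlap.

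Against the 12 normal libraries, 2 genes were higher in all 3 12/- libraries, Sparcl1 and Nid2. Among all genes tested, 1.91% had this position. Frem1 was lower in all 3, a position held by 0.929% of genes, and the other 7 genes overlapped. In 12/- libraries the mean was 3.87 times the normal mean for Sparcl1, 1.89 times for Nid2, 1.48 times for Sparc, 1.47 times for Col4a2 and 1.42 times for Col4a1. It was 1.30 times for Nid1, 1.27 times for Lama4, 1.23 times for Hspg2, 1.09 times for Lamc1 and 0.523 times for Frem1. Replicate 1 was the highest of the 12/- libraries for 9 of the 10 genes, and Frem1 was the exception. Of the 12 endothelial markers, 9 had a positive log2 difference of 12/- embryos from the mean of the normal groups. Cd34, Tek and Emcn had a negative one (-0.24 ± 0.16, -0.10 ± 0.11 and -0.01 ± 0.12, SE). The largest differences were those of Flt1 and Pecam1. Flt1, a VEGF receptor, had 51.3, 48.6 and 45.2 scaled FPKM in 12/- libraries, 38.5 in the 12/vg library and 23.0 to 35.1 in normal libraries. It was called higher in 12/- embryos against the mean of the normal groups (0.74 ± 0.12, SE, limma adjusted p = 0.0071), but not without 12/- replicate 1, without replicate 2 or with a covariate for the number range. Pecam1, which encodes CD31 itself, had 89.2, 72.9 and 72.7 in 12/- libraries, 59.5 in the 12/vg library and 46.1 to 71.8 in normal libraries (0.50 ± 0.13, adjusted p = 0.107). The part of these markers in the levels of the 10 genes was not tested. A lower number of cells of a type and less RNA per cell cannot be told apart in sorted bulk samples of this kind.

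Sparcl1 encodes hevin, a secreted glycoprotein related to SPARC (chromosome 5, 104508128 to 104543107, mm9). It had 31.1, 22.5 and 25.9 scaled FPKM in 12/- libraries and 9.65 in the 12/vg library. The +/12 libraries had 7.94, 8.71 and 7.74, the +/- libraries 4.77, 4.28 and 7.28, the +/vg libraries 8.76, 7.13 and 10.7 and the +/+ libraries 6.35, 4.40 and 4.19. The lowest 12/- library was thus above the highest normal library, which was +/vg replicate 3. On the log2(scaled FPKM + 1) scale the difference of 12/- embryos was 1.58 ± 0.20 against +/12, 2.11 ± 0.20 against +/-, 1.49 ± 0.20 against +/vg, 2.21 ± 0.20 against +/+ and 1.85 ± 0.16 against the mean of the 4 normal groups (SE). The 5 normal libraries of the low number range averaged 8.47 scaled FPKM, and within +/- and within +/vg the library of that range was the highest. With a covariate for the number range the difference against the mean of the normal groups was 1.56.

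Sparc, the founding member of the family and the most abundant of the 10 genes (chromosome 11, 55208003 to 55233582, mm9), differed less. It had 509, 387 and 466 scaled FPKM in 12/- libraries and 398 in the 12/vg library. The +/12 libraries had 272, 382 and 351, the +/- libraries 278, 260 and 410, the +/vg libraries 302, 275 and 311 and the +/+ libraries 270, 275 and 286. A single normal library, +/- replicate 3, was above the lowest 12/- library, and the +/+ libraries lay closest together. The log2 difference of 12/- embryos was 0.44 ± 0.18 against +/12 and 0.70 ± 0.18 against +/+ (SE), and 0.57 ± 0.14 against the mean of the normal groups, or 0.36 with the covariate for the number range. Of the other SPARC family genes listed, Fstl1, which encodes a secreted follistatin-like protein, was the only 1 of 6 that passed the minimum level, at 83.7 ± 8.46 scaled FPKM in 12/- libraries (SD, n = 3) and 72.3 ± 8.37 in normal libraries (SD, n = 12; log2 difference 0.21 ± 0.11, limma adjusted p = 0.504).

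The nidogens bridge the laminin and collagen networks. Nid2 (chromosome 14, 20570479 to 20631009, mm9) had 60.9, 40.6 and 43.2 scaled FPKM in 12/- libraries and 32.4 in the 12/vg library. The +/12 libraries had 20.0, 32.1 and 28.5, the +/- libraries 26.0, 18.4 and 30.2, the +/vg libraries 30.2, 29.2 and 21.6 and the +/+ libraries 26.9, 22.5 and 20.6. All 12 normal libraries were below the 12/vg library, which was itself below every 12/- library. The log2 difference of 12/- embryos from the mean of the normal groups was 0.89 ± 0.18 (SE), and it ran from 0.81 against +/vg to 1.01 against +/+. Without 12/- replicate 1, which held the highest value, it was 0.72.

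Nid1 (chromosome 13, 13529869 to 13604542, mm9) was the more abundant nidogen and differed less between genotypes. It had 142, 122 and 104 scaled FPKM in 12/- libraries, 106 in the 12/vg library, and 80.6 to 112 with a median of 93.3 in normal libraries. The groups overlapped, with 2 normal libraries above the lowest 12/- library. The log2 difference from the mean of the normal groups was 0.37 ± 0.11 (SE).

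Col4a1 and Col4a2 encode the chains of the most widespread type IV collagen. The genes lie head to head on chromosome 8 of mm9, Col4a1 at 11198423 to 11312826 and Col4a2 at 11312829 to 11449287, with 2 bases between their transcripts. Col4a1 had 143, 112 and 115 scaled FPKM in 12/- libraries and 76.9 in the 12/vg library. The +/12 libraries had 86.2, 101 and 93.6, the +/- libraries 77.1, 61.1 and 121, the +/vg libraries 84.0, 80.7 and 96.2 and the +/+ libraries 83.0, 86.8 and 71.7. Only +/- replicate 3 among the normal libraries reached the 12/- levels, and the 12/vg library lay among the lower normal ones.

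Col4a2 had 187, 123 and 134 scaled FPKM in 12/- libraries and 111 in the 12/vg library. The +/12 libraries had 99.9, 113 and 101, the +/- libraries 85.3, 125 and 137, the +/vg libraries 96.0, 85.9 and 104 and the +/+ libraries 96.4, 84.6 and 79.4. Of the normal libraries, +/- replicates 2 and 3 were above the lowest 12/- library. The log2 difference of 12/- embryos from the mean of the normal groups was 0.51 ± 0.16 for Col4a1 and 0.54 ± 0.15 for Col4a2 (SE). With the covariate for the number range these were 0.21 and 0.37.

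Lama4 encodes the alpha chain of a laminin of endothelial basement membranes (chromosome 10, 38685321 to 38829994, mm9). It had 29.1, 19.5 and 23.4 scaled FPKM in 12/- libraries, 21.7 in the 12/vg library, and 15.7 to 25.2 with a median of 18.3 in normal libraries. Lamc1, whose product is the gamma chain shared by most laminins (chromosome 1, 155066052 to 155179916, mm9), had 40.0, 32.0 and 30.3 in 12/- libraries, 40.7 in the 12/vg library, and 28.1 to 41.4 with a median of 30.3 in normal libraries. Both genes overlapped between genotypes, and the highest Lamc1 value was in the shallow +/- replicate 2. The log2 difference of 12/- embryos from the mean of the normal groups was 0.32 ± 0.13 for Lama4 and 0.12 ± 0.11 for Lamc1 (SE), and for Lamc1 against +/- it was -0.04 ± 0.14. Against the mean Lama4 was at 0.18 both with the covariate for the number range and without 12/- replicate 1. Lamc1 was at 0.0023 without 12/- replicate 1, 0.20 without replicate 3, 0.20 without scaling and 0.047 scaled to the same total.

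Hspg2 encodes perlecan, the heparan sulphate proteoglycan of vascular basement membranes (chromosome 4, 137024718 to 137126545, mm9). It had 115, 96.7 and 79.1 scaled FPKM in 12/- libraries, 93.4 in the 12/vg library, and 63.2 to 88.8 with a median of 77.9 in normal libraries. Of the 12 normal libraries, 6 were above the lowest 12/- library, and all were below the 12/vg library. The log2 difference of 12/- embryos from the mean of the normal groups was 0.29 ± 0.12 (SE), and 0.16 without 12/- replicate 1.

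Frem1 encodes a matrix protein of the FRAS and FREM family, best known from epithelial basement membranes of the embryo, and was the only gene of the set with a lower mean in 12/- than in normal libraries. The files hold 2 transcripts for it on the minus strand of chromosome 4, spanning 82543824 to 82698071 and 82543831 to 82667006 in mm9, with starts 31065 bases apart. The DNA before each annotated start is shown because the 2 transcripts differ in where they start. This DNA was taken from RefSeq on GRCm38.p6, a later build, and only bases outside annotated exons are printed, chr4:83052340-83052416 for the distal and chr4:83021103-83021352 for the proximal start. The distal start lies at 83052166, so the printed distal bases stop short of it. The proximal bases run up to their start at 83021102. They lie within the span of the transcript with the distal start and outside annotated exons, so they are intron of that transcript. Whether these bases act as a promoter, or whether either annotated start is used in these cells, was not tested. Letters run 5′ to 3′ on the minus strand, and capitals mark TGGGAA, the core of the site of RBPJ, the DNA-binding partner of the Notch intracellular domain.

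Frem1 distal start: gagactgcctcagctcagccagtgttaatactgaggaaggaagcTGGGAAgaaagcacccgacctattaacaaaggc

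Frem1 proximal start: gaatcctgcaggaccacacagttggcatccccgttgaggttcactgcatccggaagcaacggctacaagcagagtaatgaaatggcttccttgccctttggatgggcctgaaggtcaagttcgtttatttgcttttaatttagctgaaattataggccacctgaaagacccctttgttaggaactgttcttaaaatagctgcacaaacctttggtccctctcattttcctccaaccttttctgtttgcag

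In the 250 bases before a start, searched on both strands, TGGGAA had 1 match for the distal Frem1 start and 0 for the proximal one. It had 1 match each for Hspg2 and Nid1 and 0 for Col4a1, Col4a2 and Sparc. Of 32851 promoter windows of this length, 21.6% held it. The E-box CACGTG and the core of the hypoxia response element, ACGTG, which lies within CACGTG, had 0 matches in all 7 windows, against 6.02% and 16.6% of all windows. Such a match is a description of the letters and not of a binding site. Promoter sequences were matched for 6 of the 10 genes, and Sparcl1, Nid2, Lama4 and Lamc1 are named only.

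Summed over its transcripts, Frem1 had 1.46, 1.45 and 1.82 scaled FPKM in 12/- libraries and 2.88 in the 12/vg library. The +/12 libraries had 2.95, 2.16 and 1.95, the +/- libraries 2.84, 3.16 and 3.13, the +/vg libraries 3.21, 3.30 and 2.93 and the +/+ libraries 3.38, 3.87 and 3.34. The 12/- and normal libraries did not overlap, and the closest pair was 12/- replicate 3 and +/12 replicate 3. The log2 difference of 12/- embryos was -0.37 ± 0.13 against +/12, -0.65 ± 0.13 against +/-, -0.69 ± 0.13 against +/vg, -0.81 ± 0.13 against +/+ and -0.63 ± 0.10 against the mean of the normal groups (SE). The 5 normal libraries of the low number range averaged 2.62.

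The split of Frem1 between its transcripts varied within genotypes. The transcript with the distal start held 99.6% and 99.97% of the sum in 12/- replicates 1 and 2 and 0.00649% in replicate 3. In the 12/vg library it held 56.1%. Over all 16 libraries it held more than 50% in 12 and less in 4, and the 4 were of the 12/-, +/12, +/- and +/+ genotypes. The transcripts overlap over most of their genomic span and the gene is low, so the assignment of reads to either of them is uncertain and the sum is the value used.

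**Figure D2:**
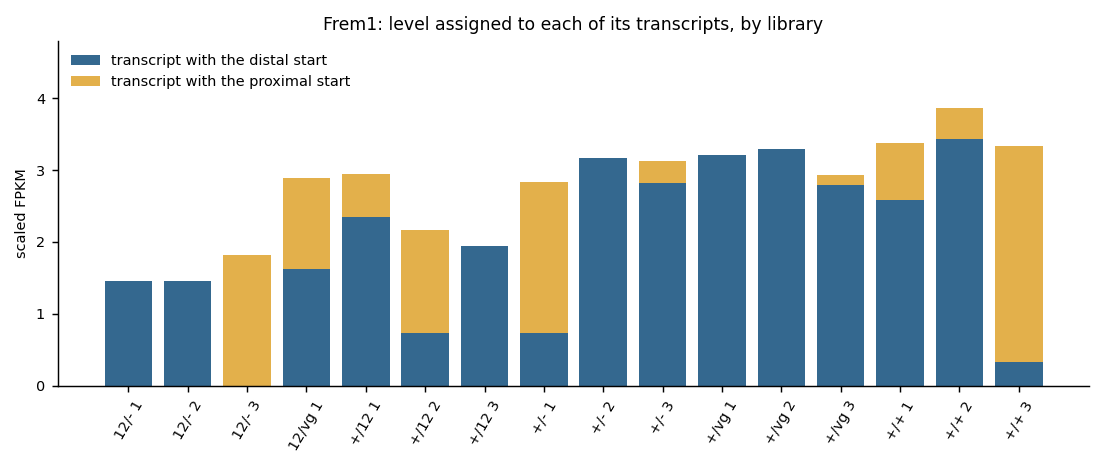
Scaled FPKM of Frem1 (vertical axis, from 0) assigned to the transcript with the distal start (blue) and to the transcript with the proximal start (yellow), stacked, in each of the 16 libraries. The 3 12/- sums, 1.46, 1.45 and 1.82, are the lowest, and the share of the distal start differs between replicates of 1 genotype.

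In the fit of all 10550 genes, a gene was called at a limma adjusted p under 0.05. For 12/- against +/12 a single gene of the set was called, Sparcl1, with 0.209% of all genes called. The count was 2 against +/- (0.569% of all genes), 2 against +/vg (0.445%) and 2 against +/+ (0.607%), which were Sparcl1 and Frem1 each time. Against the mean of the 4 normal groups it was 3, with Sparcl1 and Nid2 higher and Frem1 lower, and 0.787% of all genes were called, 0.72% higher and 0.0664% lower. As these contrasts chose the genes, nothing is read from the counts. The median log2 difference of the 10 genes was 0.40, 0.35, 0.49, 0.47 and 0.44 in the same order, and that of all genes tested lay between -0.0048 and 0. These comparisons share the 12/- libraries.

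The calls of Nid2 and Frem1 depended on single libraries. Against the mean of the normal groups, Nid2 was called in 18 of 30 alternatives and Frem1 in 24 of 29. The count there was 1 without 12/- replicate 1 or without replicate 2, and 5 without +/- replicate 3, the normal library with the highest value of 6 of the genes. Frem1 was also not called against +/- without any 1 of 13 libraries, against +/vg without any 1 of 9 and against +/+ without any 1 of 3, 12/- replicates 1 and 2 among them each time. The count was then 1, except that it was 3 against +/- without +/- replicate 3. Sparcl1 was called in each of these comparisons under all 30 alternatives run. The genes were chosen with these contrasts in view, so this steadiness is a description and not support. In the comparison of the loss of a wild-type allele beside 12 with its loss beside wild type, (12/- minus +/12) minus (+/- minus +/+), 0 genes of the set were called by limma (0.0474% of all genes), with 2 of 10 genes and 6.56% of all genes at an unadjusted p under 0.05. Without +/- replicate 3 the count was 1, Sparcl1. The interaction was 1.48 ± 0.28 for Sparcl1 and 0.75 ± 0.32 for Nid2 (SE). It contains the same 12/- libraries, so its values are also a description and nothing is read from its counts.

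**Figure D3:**
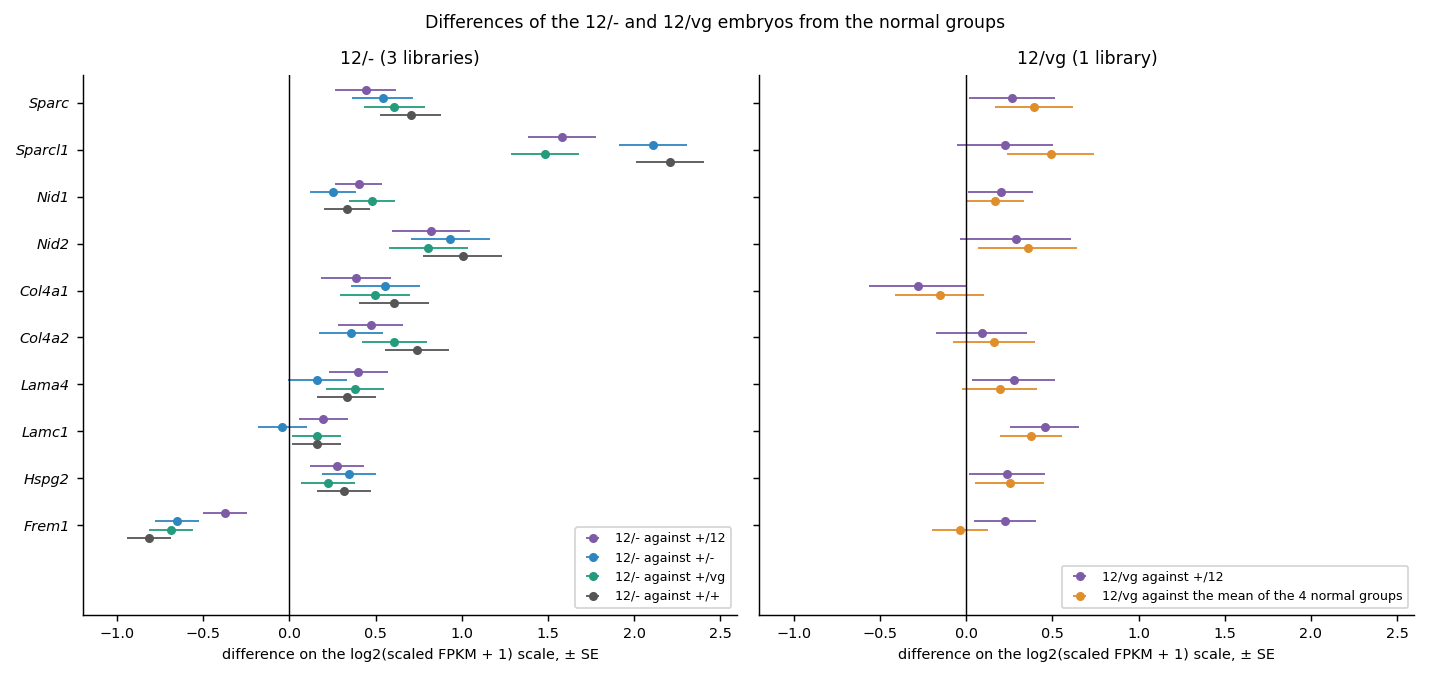
Difference on the log2(scaled FPKM + 1) scale (horizontal axis, ± SE) of the 12/- embryos from each normal group (left) and of the 12/vg library from +/12 and from the mean of the 4 normal groups (right), for the 10 genes. Sparcl1 lies between 1.49 and 2.21 on the left, Frem1 is below 0 in all 4 comparisons there, and no 12/vg difference exceeds 0.49.

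The comparisons of 12/vg rest on 1 shallow library and share the normal libraries with the comparisons that led to the choice of genes, so they are not independent of it. In the 12/vg library 8 of the 10 genes were above the median of the normal libraries, against 47.3% of all genes tested. It was below every 12/- library for 4 genes (35.3% of all genes) and above every 12/- library for 2 (32.8%). None was called against +/12 (limma, 0 of 10 genes, 0.0664% of all genes called, 1 of 10 and 14.9% of all genes at an unadjusted p under 0.05). Against the mean of the 4 normal groups none was called either (limma, 0 of 10, 0.332% of all genes, 0 of 10 and 18.3% at an unadjusted p under 0.05). Sparcl1 differed by 0.49 ± 0.25 (SE, limma adjusted p = 0.318), Sparc by 0.39 ± 0.23 (adjusted p = 0.365) and Nid2 by 0.36 ± 0.29 (adjusted p = 0.532). Lamc1, the gamma chain, differed by 0.38 ± 0.18 (adjusted p = 0.288, the lowest of the 10), and Frem1 by -0.04 ± 0.16 (adjusted p = 0.921). With the covariate for the number range Sparcl1 was at 0.20 and Sparc at 0.18, and with the covariate for gigabases Sparcl1 was at 0.76, Sparc at 0.67, Nid2 at 0.79 and Lamc1 at 0.11. The fit assumes that the single library varies like the other groups.

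Among the normal groups no gene of the set was called. For +/12, +/- and +/vg against +/+ the limma count was 0 of 10 each time, with 0% of all genes called. At an unadjusted p under 0.05 the counts were 2, 0 and 1 of 10, against 5.37%, 7.51% and 7.52% of all genes. Sparcl1 differed from +/+ by 0.63 ± 0.20 in +/12 (SE, limma adjusted p = 0.898), by 0.10 ± 0.20 in +/- (adjusted p = 0.915) and by 0.72 ± 0.20 in +/vg (adjusted p = 0.397). For +/12 this value was 0.14 with the covariate for the number range. Frem1 differed from +/+ by -0.44 ± 0.13 in +/12 (adjusted p = 0.863), -0.16 ± 0.13 in +/- (adjusted p = 0.766) and -0.13 ± 0.13 in +/vg (adjusted p = 0.885). Between +/12 and +/+ the number range and the genotype cannot be told apart for any gene. The other 8 genes differed from +/+ by -0.14 to 0.39 in these groups.

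A test for any difference among the 4 normal groups likewise called 0 of 10 genes (limma F test, 0% of all genes). At an unadjusted p under 0.05 it held 2 of 10 genes and 6.26% of all genes. The 2 were Sparcl1, with F = 6.90 and adjusted p = 0.698, and Frem1, with F = 4.27 and adjusted p = 0.729.

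Ratios within a library do not depend on the scaling. Sparcl1 came to 0.0610, 0.0582 and 0.0556 of Sparc in 12/- libraries, 0.0242 in the 12/vg library, and 0.0147 to 0.0343 with a median of 0.0224 in normal libraries. The 12/- libraries did not overlap with the others, so the levels of Sparcl1 and Sparc differed unequally. Nid2 over Nid1 was 0.429, 0.334 and 0.414 in 12/- libraries, 0.307 in the 12/vg library, and 0.202 to 0.375 with a median of 0.259 in normal libraries, which overlapped with 12/-. Col4a2 over Col4a1 was 1.19 ± 0.108 in 12/- libraries (SD, n = 3), 1.45 in the 12/vg library and a median of 1.11 in normal libraries, within 0.975 to 1.16 apart from 2.05 in the shallow +/- replicate 2. Both libraries with the highest ratio of the collagen chains were thus the shallow ones. Lama4 over Lamc1 was 0.703 ± 0.0838 in 12/- libraries (SD, n = 3), 0.532 in the 12/vg library and 0.606 ± 0.0494 in normal libraries (SD, n = 12).

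**Figure D4:**
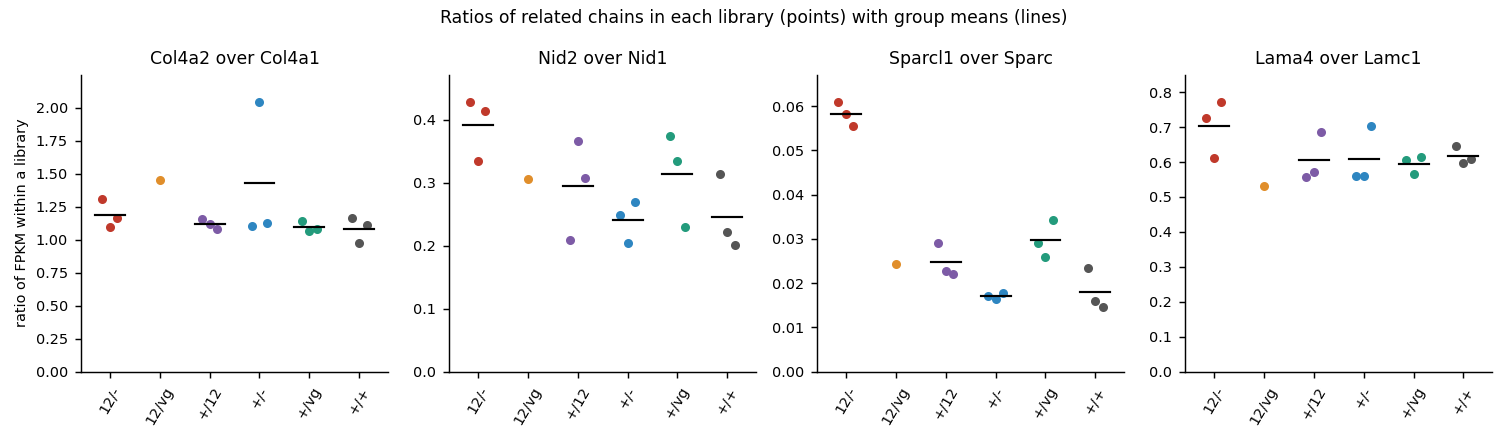
Ratio of the FPKM of 2 related genes within each library (vertical axis, from 0; points) with group means (lines), for 12/-, 12/vg, +/12, +/-, +/vg and +/+ libraries. Sparcl1 over Sparc is between 0.0556 and 0.0610 in the 12/- libraries and at most 0.0343 in the others, while the other ratios overlap between groups.

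How the genes varied together is described by Pearson's r of log2(scaled FPKM + 1) across libraries, which share scaling, depth and number range within each library. Over the 12 normal libraries, r was 0.84 between Sparc and Col4a1, 0.82 between the laminin chains Lama4 and Lamc1 and 0.73 between Col4a2 and Lama4. The collagen chains Col4a1 and Col4a2 had an r of 0.40, and the nidogens Nid1 and Nid2 had -0.21. Over all 16 libraries these last were 0.70 and 0.61. Sparcl1 and Frem1 had -0.84 over all 16 libraries and -0.46 over the 12 normal ones.

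The 3 genes with the pattern most like that of Sparcl1 over 16 libraries, among 9485 searched, were the phosphofructokinase gene Pfkp, the phosphodiesterase gene Pde4b and the glucose phosphate isomerase gene Gpi1, at r of 0.96, 0.95 and 0.93. Over the 12 normal libraries their r was 0.83, 0.87 and 0.71. For Nid2 they were Gpi1 at 0.94, Git1, which encodes an adaptor protein of focal adhesions, at 0.91 and the glycogen phosphorylase gene Pygl at 0.91, with 0.84, 0.88 and 0.72 over the normal libraries. For Col4a1 they were Prrg3, Pik3ip1 and Tagln2 at 0.94, 0.92 and 0.90, with 0.93, 0.88 and 0.88 over the normal libraries. For Frem1 they were Ociad2, Tusc2 and Sqle at 0.82 each, with 0.36, 0.47 and 0.61 over the normal libraries. Between the 12/- and the normal libraries a gene can be alike through the genotype difference alone, which the second value leaves out.

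Other matrix genes were read from lists that were also chosen with earlier results known, so their adjusted p-values are not independent evidence. Each list was compared between 12/- embryos and the mean of the 4 normal groups. In this comparison 0.787% of all genes were called by limma and 11.5% had an unadjusted p under 0.05. Of the other laminin and collagen IV chains, 5 of 13 passed the minimum level, and 0 were called higher and 0 lower by limma (2 of 5 at an unadjusted p under 0.05, against 11.5% of all genes). The median log2 difference was -0.01, against -0.0048 for all genes. Lamb1, the beta chain that pairs with Lamc1, had 38.1 ± 7.13 scaled FPKM in 12/- libraries (SD, n = 3) and 27.7 ± 2.07 in normal libraries (SD, n = 12; log2 difference 0.43 ± 0.11, limma adjusted p = 0.108), and was called in 2 of 30 alternatives, with array weights and without 12/- replicate 3. Lama1, an alpha chain of early embryonic laminins, had 4.92 ± 0.970 and 5.32 ± 1.48 in the same order (adjusted p = 0.939).

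Other basement membrane components gave 0 called of 6 tested by limma, 0 also at an unadjusted p under 0.05, and a median of -0.06. Col18a1, the source of endostatin, had 94.5 ± 14.4 scaled FPKM in 12/- libraries (SD, n = 3) and 74.3 ± 18.3 in normal libraries (SD, n = 12; limma adjusted p = 0.523). Col15a1, a related collagen, had 14.2 ± 1.04 and 18.9 ± 4.47 in the same order (adjusted p = 0.469). Integrins and other matrix receptors gave 0 called of 12 tested, 1 at an unadjusted p under 0.05, and a median of 0.24. The integrin beta chain Itgb1 had 65.3 ± 4.81 and 59.3 ± 5.26 (adjusted p = 0.654), and Itgb3 had 35.7 ± 22.3 and 28.5 ± 12.8 (adjusted p = 0.862).

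Of the genes of matrix assembly and remodelling, 1 of 10 tested was called higher and 0 lower, 5 passed an unadjusted p under 0.05, and the median was 0.05. It was Loxl2, which encodes a lysyl oxidase that crosslinks type IV collagen. Loxl2 had 28.8, 24.8 and 26.4 scaled FPKM in 12/- libraries, 17.3 in the 12/vg library, and 12.0 to 17.7 in the 12 normal libraries, without overlap between 12/- and the rest. It rose by 0.91 ± 0.12 against the mean of the normal groups (SE, limma adjusted p = 0.0015), and was called higher against each normal group (adjusted p from 0.0086 to 0.0257). Against that mean it was called under all 30 alternatives. Against a single normal group it was called in 24 of 30 for +/12, 28 for +/-, 22 for +/vg and 23 for +/+, and in none of these without 12/- replicate 1 or with each pair of groups fitted alone. Of the other libraries, it was not called against +/12 without +/12 replicate 1 or 3 or 12/- replicate 3, against +/vg without any of the other libraries of that pair, or against +/+ without +/+ replicate 2 or 3 or 12/- replicate 3. The collagen chaperone Serpinh1 had 141 ± 2.36 scaled FPKM in 12/- libraries (SD, n = 3) and 124 ± 12.9 in normal libraries (SD, n = 12; adjusted p = 0.364). The protease inhibitor Timp3 had 62.7 ± 7.44 and 47.8 ± 9.64 (adjusted p = 0.230).

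Interstitial matrix genes gave 0 called of 16 tested by limma, 2 at an unadjusted p under 0.05, and a median of -0.10. Fibronectin, Fn1, had 183 ± 19.0 scaled FPKM in 12/- libraries (SD, n = 3) and 196 ± 23.0 in normal libraries (SD, n = 12; limma adjusted p = 0.804). Biglycan, Bgn, had 40.9 ± 6.95 and 38.1 ± 11.0 (adjusted p = 0.860). Mesenchymal markers, 8 of 8 present, summed to 12.1 to 25.3 scaled FPKM in 12/- libraries, 19.7 in the 12/vg library and 15.2 to 46.0 in normal libraries. Mural cell markers, 10 of 10 present, summed to 21.1 to 25.3, 22.2 and 15.0 to 29.8, and endoderm markers, 10 of 10 present, to 41.8 to 43.0, 44.8 and 27.8 to 96.8. These ranges overlapped between 12/- and normal libraries, and no marker of the 3 lists was at 0 in all 3 12/- libraries, though 4 of 8, 6 of 10 and 8 of 10 averaged under 1 there. Of the markers tested, 0 of 4 mesenchymal, 3 of 5 mural and 2 of 6 endoderm ones had a positive difference from the mean of the normal groups. Their median log2 differences were -0.16, 0.18 and -0.35, and 0 were called by limma, against 0.787% of all genes. Most of the endoderm sum in 12/- libraries came from Sox7 and Thbd, at means of 29.8 and 11.0 scaled FPKM. In normal libraries these averaged 21.6 and 10.4. The sum therefore says little about the other endoderm markers, and which cells the RNA of Sox7 and Thbd came from was not tested. The part of other cell types in the levels of the matrix genes was not tested.

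**Figure D5:**
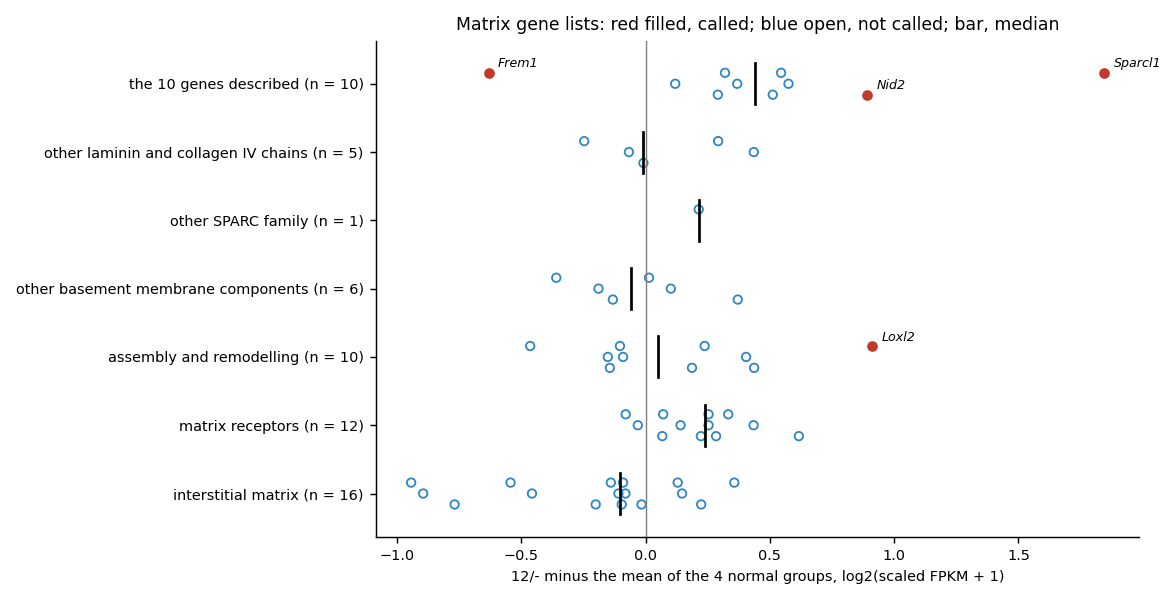
Difference of 12/- embryos from the mean of the 4 normal groups on the log2(scaled FPKM + 1) scale (horizontal axis) for the 10 genes and for 6 lists of other matrix genes (rows); each point is a gene that passed the minimum level, filled red where called and open blue where not, and the bar is the median. Outside the 10 genes, whose red points are Sparcl1, Nid2 and Frem1, Loxl2 is the only gene called.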

How the data were processed

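RNA of CD31-positive endothelial cells was sequenced in 16 libraries of 6 genotypes, 3 per genotype and 1 for 12/vg. The authors deposited, per the file headers, a table of 28107 RefSeq transcripts per library in the cufflinks layout, with FPKM values and coverage values; coverage over FPKM was constant within a library and gives its aligned gigabases. The submitters' processing notes name TopHat2 2.0.9 and the mm9 build; neither strandedness nor read numbers are known, so the precision from counting is unknown.

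Transcript FPKM values were summed per symbol (Python 3.11.15, pandas 2.3.3), leaving out 211 symbols with a transcript whose status was not OK. Libraries were divided by median-ratio factors over 8610 genes with at least 1 FPKM in every library (0.851 to 1.13). Genes with a mean of at least 1 FPKM, 10550 in number, were fitted as log2(scaled FPKM + 1) with limma 3.58.1 in R 4.3.3 (lmFit, eBayes with trend, two-sided, Benjamini-Hochberg over all genes, 10 residual degrees of freedom). Fold changes on this scale understate the change of low genes such as Frem1. The labels spell wild type in different ways for +/+ replicate 1 and for replicates 2 and 3, which were taken as 1 group. Replicates were numbered in accession order.

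The 10 genes, the lists and the tests were chosen with earlier results of these data known. Of 162 list entries, 160 matched symbols. By rule the genes of the set are all named, and of each list those called for 12/- in that comparison with the 4-group mean, with the 2 of highest mean FPKM where fewer than 2 were called. Markers of cardiomyocytes, endocardium, epithelium, neural tube and erythroid cells were also summed. Alternatives were other scalings, pseudocounts, filters and weights, covariates for number range and depth, groups compared alone, and leaving out each library. Promoter sequences came from RefSeq tables on GRCm38.p6.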

Additional observations from a re-analysis of the deposited data

How the results depend on the processing

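Over 30 alternatives, the sign of 1489 of 1495 values of the 10 genes in the 12/- comparisons was kept, and the exceptions were Lamc1 and Lama4 against +/-. In the other comparisons 1699 of 1754 kept it. Other settings left Sparcl1 as the only gene of the 10 called in these cases. Against +/- it was 1 without scaling, without a filter on low values, with a minimum mean of 5 FPKM, with array weights, with groups compared alone, with a covariate for the number range or for gigabases, without the 2 shallow libraries and with the highest transcript only. Against +/vg it was 1 without scaling, without a filter, with the minimum of 5 FPKM, with groups compared alone, with the range covariate and with the highest transcript only, and against +/+ it was 1 under the same settings except the missing filter. Against the mean of the normal groups it was 1 with the range covariate. The cause was not tested, except that Frem1 is not tested at all under the minimum of 5 FPKM. The range covariate is estimated from +/- and +/vg alone. Leaving out 1 library, the counts ran from 1 to 3 against +/-, 1 to 2 against +/vg, 1 to 3 against +/+, 1 to 5 against the mean and 0 to 1 in the interaction. Among all genes, the calls for 12/- ran from 8 to 92 against +/12 (22 as reported), 12 to 161 against +/- (60), 26 to 183 against +/vg (47), 19 to 143 against +/+ (64) and 27 to 249 against the mean (83). For 12/vg they ran from 2 to 529 (7) and 6 to 839 (35), the highest with array weights. Against +/- 54 genes were called higher and 6 lower, and 36 and 12 when scaled to the same total. Against +/+ 57 were higher and 7 lower, and 52 and 0 without scaling. Against the mean these were 76 and 7, 81 and 0 without scaling, and 54 and 11 scaled to the same total. For 12/- against +/12 the median of all genes was 0.11 without scaling and -0.0039 as reported. No paired analysis was possible because the labels give a running sample number and no replicate number. The 12/vg comparisons have no value without that library. Depth limits the low genes most, Frem1 above all, in the 2 shallow libraries.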

Other observations

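Other marker lists gave these sums in scaled FPKM. Endocardial markers, 6 of 6 present, summed to 103 to 111 in 12/- libraries, 108 in the 12/vg library and 98.3 to 142 in normal libraries. In 12/- embryos against the mean of the normal groups, 3 of 6 passed an unadjusted p under 0.05 by limma, against 11.5% of all genes. Their signs differed between genes. The log2 difference was -1.03 ± 0.26 for Cdh11 and 0.66 ± 0.23 for Vwf (SE), the only 1 of the 6 with a positive difference. Of these 6 markers, 1 was called lower, against 0.0664% of all genes. It was Npr3, a natriuretic peptide receptor gene, with 6.87, 6.71 and 6.53 in 12/- libraries, 7.65 in the 12/vg library and 8.99 to 15.2 in normal libraries (log2 difference -0.69 ± 0.12, SE, limma adjusted p = 0.0126). It was not called without any 1 of the 3 12/- libraries, without scaling or with the highest transcript only. Cardiomyocyte markers, 8 of 8, summed to 28.8 to 41.9, 42.2 and 18.9 to 64.4 in the same order. Epithelial markers, 7 of 7, summed to 22.3 to 43.3, 29.5 and 8.05 to 74.8, and neural tube markers, 6 of 6, to 27.0 to 38.5, 42.0 and 19.2 to 38.3. Erythroid markers, 8 of 8, summed to 78.1 to 331, 24.8 and 91.4 to 244. Most of the neural tube sum came from Nes, at means of 30.5 in 12/- and 24.1 in normal libraries. The other 5 neural tube markers averaged under 1 in both, so that sum says little about them. Among the normal libraries, +/- replicate 3 stood out for the basement membrane and SPARC family genes. All 10 of them were above their normal mean there, with a median deviation of 0.26 on the log2 scale, against 0.67, 0.33 and 0.36 in the 12/- libraries and 0.22 in the 12/vg library.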
